A study of Mus musculus with 18 samples.

Results

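Messenger RNA of 9 genes that carry or shape the electrical impulse of the heart was described in cardiomyocytes and cardiac fibroblasts of Bag3-P209L Tg+ and Bag3-WT mice. The genes were chosen by name as potassium channel, pacemaker channel and gap junction genes: Kcnip2, Kcnd2, Kcnj2, Kcnq1, Kcnh2, Hcn2, Hcn4, Gja1 and Gja5. All 9 were found among the 19094 protein-coding genes of the deposited tables. No sodium channel gene is among them.

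The study set hearts of 3 Bag3-P209L Tg+ mice against hearts of 3 Bag3-WT mice, and all 6 animals were 16 months old. The co-chaperone BAG3 acts in striated muscle, and P209L is a substitution known from inherited human muscle and heart disease. Each mouse gave 2 cardiomyocyte samples, named rep1 and rep2, and 1 fibroblast sample, so that there are 12 cardiomyocyte and 6 fibroblast columns, called libraries here. The labels tell of a second round of sequencing for cardiomyocytes and do not say whether rep1 and rep2 are separate libraries or rounds of 1 library. The sources used here do not state the promoter or the species of the transgene, or how the cells were purified. The labels name 6 animals, and both cardiomyocyte libraries of an animal were added up, so that the mouse is the replicate throughout.

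Each heartbeat is an action potential that opens and closes a fixed sequence of channels. Kcnd2 encodes Kv4.2, a pore of the fast transient outward potassium current that starts repolarization in mouse ventricle, and Kcnip2 encodes KChIP2, the subunit that brings this pore to the membrane. Kcnj2 encodes Kir2.1, an inward rectifier that holds the resting potential, while Kcnq1 and Kcnh2 encode the pores of the slow and the rapid delayed rectifier. Hcn2 and Hcn4 encode channels of the pacemaker current, and Hcn4 is a defining gene of the sinoatrial node. Gja1 and Gja5 encode connexin 43 and connexin 40, which form the gap junctions that pass current from cell to cell. Connexin 43 joins ventricular cardiomyocytes and is also made by fibroblasts, and connexin 40 is typical of atrial and conduction cells and of arterial endothelium.

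The labelled cell types were only partly separate in these libraries. All 13 cardiomyocyte markers were higher in cardiomyocytes, with a median log2 fold change of 1.81, yet the gene of the cardiac myosin heavy chain, Myh6, lay between 90.9 and 211 CPM (counts scaled to a common library size of 1000000) in fibroblasts, against 266 to 481 CPM in cardiomyocytes. Summed over the 13 fibroblast markers, cardiomyocyte libraries held 5036 to 11950 CPM and fibroblast libraries 2898 to 7985 CPM. Only 1 fibroblast marker passed as lower in cardiomyocytes and 2 passed as higher. All 13 macrophage and myeloid markers were lower in cardiomyocytes, and the smooth muscle and pericyte list had 9 of 11 higher. Differences between the labelled cell types are therefore differences between 2 mixed preparations. In such bulk samples, fewer cells of a type and less RNA per cell cannot be told apart.

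Depth set a limit on the rarest channels. Mitochondrially encoded genes took 51.7 to 85.5% of the counts of a mouse's cardiomyocytes, which left 2261639 to 7793081 nuclear counts, against 11309891 to 15811084 in fibroblasts. CPM values were scaled by trimmed means of M values (TMM) over all 12 mouse and cell type columns. A floor of 3 counts in a column corresponded to 0.118 to 0.445 CPM in cardiomyocytes and to 0.0824 to 0.111 CPM in fibroblasts. These floors cover counting error only. The SE and intervals given below with edgeR fold changes were derived from the F statistic of the edgeR fits. The error in these fits also takes in the spread between mice.

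Per kilobase of the longest coding transcript, Gja1 stood far above the other members in both preparations. In cardiomyocytes its median over 6 mice was 16.9 CPM per kilobase, ahead of Kcnip2 at 2.54, Gja5 at 1.76, Kcnq1 at 0.919, Kcnh2 at 0.653, Hcn2 at 0.540, Kcnj2 at 0.417, Kcnd2 at 0.240 and Hcn4 at 0.0834. The lowest mouse for Gja1 (12.7) lay above the highest for Kcnip2 (5.02), and the lowest for Kcnj2 (0.353) above the highest for Kcnd2 (0.329). All other neighbours in this order overlapped in their ranges over mice. In fibroblasts the medians per kilobase were 47.1 for Gja1, 1.01 for Kcnq1, 0.760 for Kcnip2, 0.645 for Gja5, 0.600 for Kcnj2, 0.416 for Hcn4, 0.380 for Hcn2, 0.294 for Kcnh2 and 0.0489 for Kcnd2. There, Gja1 at the top and Kcnd2 at the bottom were apart from their neighbours, and the members between them overlapped from each gene to the next.

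**Figure D1:**
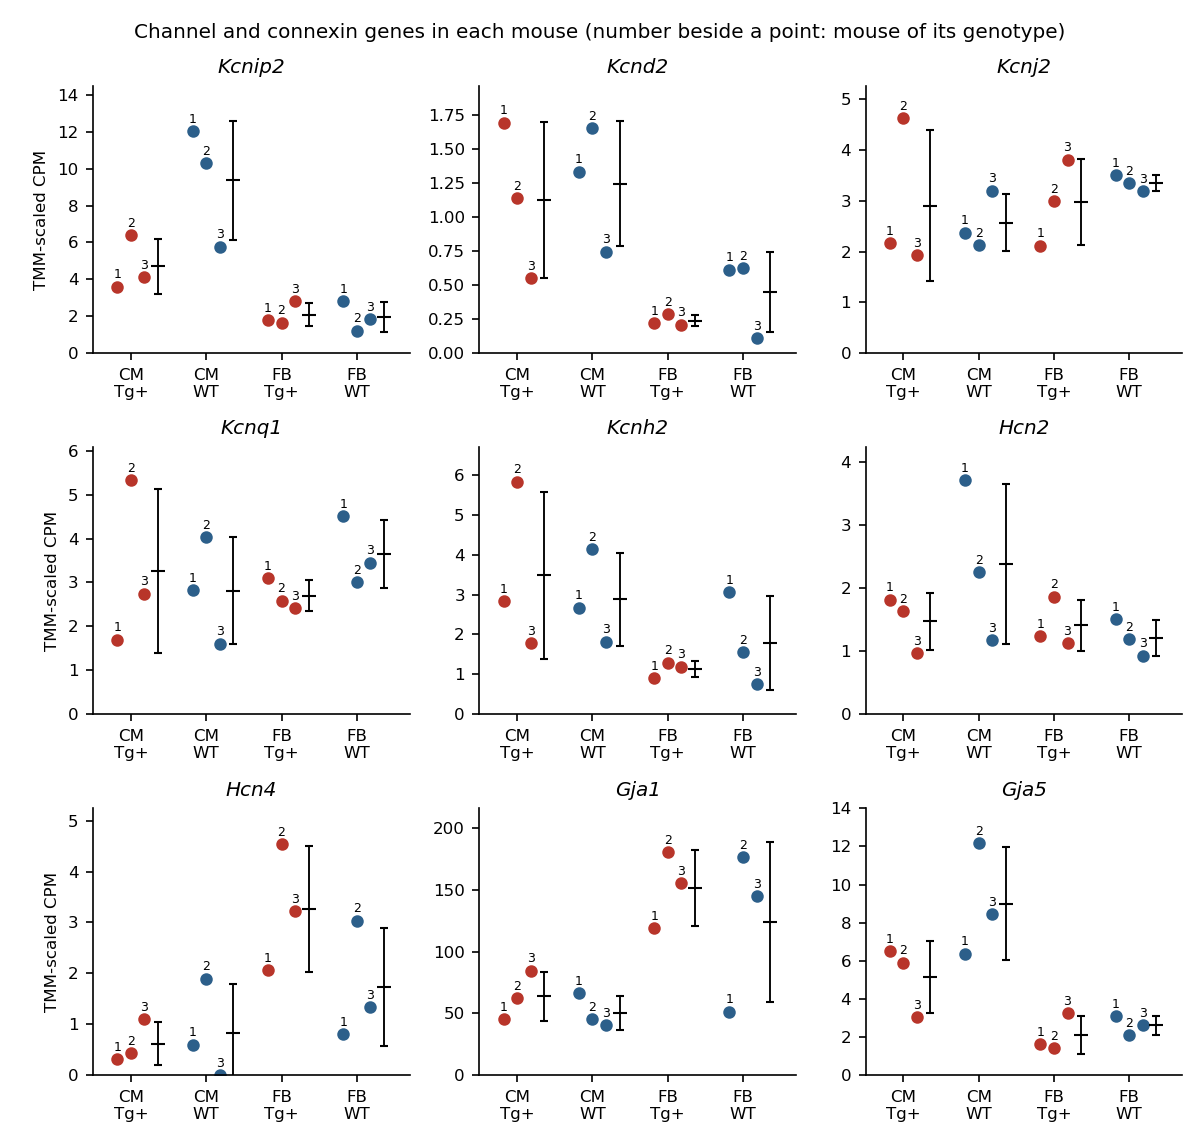
TMM-scaled CPM (vertical axis, linear, from 0) of the 9 genes in cardiomyocytes (CM) and fibroblasts (FB) of Tg+ (red) and WT (blue) mice. Points are mice, numbered within their genotype, and black bars show the mean ± SD over 3 mice (cut at 0 for Hcn4). Kcnip2, Kcnd2, Kcnh2 and Gja5 lie higher in most CM columns, Gja1 and Hcn4 in most FB columns, and Tg+ and WT points overlap within each cell type for all 9 genes.

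The first comparison asked which of these genes differ between cardiomyocytes and fibroblasts of the same mouse. Kcnip2, Kcnd2, Kcnh2 and Gja5 were higher in cardiomyocytes, Gja1 and Hcn4 were lower, and Kcnj2, Kcnq1 and Hcn2 did not pass the test. The test was edgeR's quasi-likelihood test with mouse as block on 13891 genes, two-sided, with Benjamini-Hochberg adjustment over all of them and a threshold of 0.05. By the same test 44.6% of all genes passed, 19.7% as higher and 24.9% as lower in cardiomyocytes, so that passing the test is common in this comparison and 6 of 9 genes stand beside that share. Fold changes below are on the log2 scale, cardiomyocytes over fibroblasts. The median of the 9 genes was 0.47, and that of all genes was −0.04. Kcnip2 and Kcnd2 were higher in cardiomyocytes in 6 of 6 mice and Hcn4 was lower in 6 of 6, while 41.7% of all genes kept 1 direction in 6 of 6 mice.

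The promoters of 4 members that passed in opposite directions are shown, Kcnip2 and Gja5 from the higher group and Gja1 and Hcn4 from the lower group. RefSeq promoter windows, from 250 bases before to 50 bases after the start site, were found for 8 of the 9 members, on build GRCm38.p6. Windows lie at chr19:45816014-45816313 on the minus strand for Kcnip2, chr3:97032152-97032451 on the plus strand for Gja5, chr10:56377050-56377349 on the plus strand for Gja1 and chr9:58822699-58822998 on the plus strand for Hcn4. Capitals mark matches, on either strand, to the AP-1 motif TGANTCA, to the letters GATA, to the NKX2-5 motif AAGTG and to the GC box GGGCGG. A match on the other strand appears as its reverse complement. No marked match overlaps another.
Kcnip2: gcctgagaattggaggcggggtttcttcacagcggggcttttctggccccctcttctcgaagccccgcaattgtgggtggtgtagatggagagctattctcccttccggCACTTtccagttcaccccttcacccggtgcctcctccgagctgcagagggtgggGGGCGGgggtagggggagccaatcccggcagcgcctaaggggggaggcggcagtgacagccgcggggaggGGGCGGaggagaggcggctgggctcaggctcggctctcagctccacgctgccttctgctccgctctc
Gja5: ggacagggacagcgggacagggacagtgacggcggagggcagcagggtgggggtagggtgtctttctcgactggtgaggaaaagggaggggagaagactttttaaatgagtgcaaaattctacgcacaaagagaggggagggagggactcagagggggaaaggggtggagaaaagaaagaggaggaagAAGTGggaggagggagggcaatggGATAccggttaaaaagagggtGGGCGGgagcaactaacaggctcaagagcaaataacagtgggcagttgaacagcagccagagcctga
Gja1: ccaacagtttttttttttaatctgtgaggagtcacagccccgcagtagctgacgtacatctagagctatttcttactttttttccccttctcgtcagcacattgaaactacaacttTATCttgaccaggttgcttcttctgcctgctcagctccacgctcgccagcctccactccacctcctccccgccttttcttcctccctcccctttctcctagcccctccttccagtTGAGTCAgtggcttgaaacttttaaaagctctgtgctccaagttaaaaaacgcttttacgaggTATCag
Hcn4: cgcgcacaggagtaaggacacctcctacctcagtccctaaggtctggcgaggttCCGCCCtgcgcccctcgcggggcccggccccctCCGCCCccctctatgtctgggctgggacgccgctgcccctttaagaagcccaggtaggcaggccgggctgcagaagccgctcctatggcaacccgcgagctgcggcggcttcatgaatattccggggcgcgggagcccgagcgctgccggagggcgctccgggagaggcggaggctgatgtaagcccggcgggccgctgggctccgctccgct
Gja1 alone among the 8 windows held an AP-1 match, whose first base lies at position −19 from the start site, and this motif occurs in 7.81% of all 32817 RefSeq windows of the same length. GATA occurs in 57.9% of all windows and in 3 of the members' windows, with first bases at −134 and 45 in Gja1, at −38 in Gja5 and at −29 and −6 in Kcnj2. NKX2-5 letters occur in 46.4% of all windows and in 2 of the members', at −141 in Kcnip2 and −62 in Gja5. The GC box occurs in 35.6% of all windows and in 7 of the members', all but Gja1. The windows hold 67.0% G and C in Kcnip2, 55.7% in Gja5, 47.7% in Gja1 and 71.7% in Hcn4, against a median of 52.7% over all windows. The search covered 6 other motifs. The E-box CANNTG occurs in 72.3% of all windows and 5 of the members', and in Gja1 an E-box match at −23 overlaps the AP-1 match. The IRX motif ACANNTGT is found in 7.38% of all windows, the T-box motif GGTGTG in 19.1%, the SRF CArG box in 1.63% and the MEF2 motif in 3.19%, and none of them is in the members' windows. The same holds for the box of the core promoter that reads TATAAA, found in 13.6%. These matches describe letters and were not tested for use.

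Among the transient outward genes, Kcnip2 (chr19:45791839-45816061, minus strand, GENCODE M21 on GRCm38) had 3.59, 6.40 and 4.12 CPM in cardiomyocytes of Tg+ mice 1 to 3, and 12.0, 10.3 and 5.76 CPM in those of WT mice 1 to 3. Fibroblasts held 1.79, 1.64 and 2.80 CPM in the Tg+ mice and 2.81, 1.22 and 1.85 CPM in the WT mice. Every cardiomyocyte value of Kcnip2 lay above every fibroblast value, and the highest were those of WT mice 1 and 2. Its fold change was 1.72 (SE 0.34, edgeR adjusted p = 0.00224), or 3.30-fold higher in cardiomyocytes. The within-mouse log2 differences ran from 0.54 in Tg+ mouse 3 to 2.99 in WT mouse 2.

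Its pore partner Kcnd2 (chr6:21215503-21729805, plus strand) was rare. It had 1.70, 1.14 and 0.549 CPM in cardiomyocytes of Tg+ mice 1 to 3, from 43, 16 and 4 counts, and 1.34, 1.66 and 0.747 CPM in those of WT mice 1 to 3, from 9, 14 and 7 counts. Fibroblasts had 0.220, 0.284 and 0.210 CPM in Tg+ mice and 0.613, 0.624 and 0.111 CPM in WT mice. Cardiomyocytes and fibroblasts overlapped only through Tg+ mouse 3, whose cardiomyocytes lay below the fibroblasts of WT mice 1 and 2. The fold change of 1.90 (SE 0.52, edgeR adjusted p = 0.0123) passed, but without Tg+ mouse 1, which gave the most counts, the adjusted p was 0.0625, and with only the rep2 cardiomyocyte libraries it was 0.0562.

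For the inward rectifier gene Kcnj2 (chr11:111066164-111076821, plus strand), cardiomyocytes had 2.17, 4.62 and 1.92 CPM in Tg+ mice and 2.37, 2.13 and 3.20 CPM in WT mice. Fibroblasts had 2.12, 2.99 and 3.81 CPM in Tg+ mice and 3.51, 3.35 and 3.19 CPM in WT mice. The ranges overlapped widely, and 3 of 6 mice had the higher value in cardiomyocytes. The fold change was −0.23 with a 95% interval from −0.92 to 0.45 (edgeR adjusted p = 0.567).

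Of the delayed rectifier genes, Kcnh2 passed and Kcnq1 did not, and the difference between them was not tested. Kcnh2 (chr5:24319589-24351604, minus strand) had 2.84, 5.83 and 1.79 CPM in cardiomyocytes of Tg+ mice and 2.67, 4.14 and 1.81 CPM in those of WT mice. Fibroblasts had 0.906, 1.29 and 1.19 CPM in Tg+ mice and 3.07, 1.56 and 0.741 CPM in WT mice. Cardiomyocytes were the higher of the pair in 5 of 6 mice, the exception being WT mouse 1, whose fibroblast library stood above its cardiomyocytes. The fold change of 1.17 (SE 0.39, edgeR adjusted p = 0.0295) was the least stable of the 6 that passed, since leaving out any of 4 mice (Tg+ mice 1 and 2, WT mice 2 and 3) ended the call, with adjusted p-values up to 0.122.

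Kcnq1 (chr7:143106362-143427042, plus strand) had 1.70, 5.34 and 2.75 CPM in cardiomyocytes of Tg+ mice and 2.82, 4.03 and 1.60 CPM in those of WT mice. Its fibroblast values were 3.10, 2.59 and 2.41 CPM in Tg+ mice and 4.51, 3.01 and 3.45 CPM in WT mice. Mice 2 of both genotypes had the highest cardiomyocyte values, the ranges overlapped, and 3 of 6 mice were higher in cardiomyocytes. The fold change was −0.15 with a 95% interval from −0.94 to 0.63 (edgeR adjusted p = 0.748).

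Of the pacemaker channel genes, Hcn2 (chr10:79716634-79736108, plus strand) had 1.82, 1.64 and 0.961 CPM in cardiomyocytes of Tg+ mice and 3.71, 2.25 and 1.17 CPM in those of WT mice. Fibroblasts held 1.24, 1.86 and 1.12 CPM in Tg+ mice and 1.51, 1.19 and 0.927 CPM in WT mice. In cardiomyocytes 4 of 6 mice were higher, and the ranges overlapped. Its fold change was 0.47 with a 95% interval from −0.38 to 1.31 (edgeR adjusted p = 0.345).

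Hcn4 (chr9:58823412-58863175, plus strand) had 0.316, 0.427 and 1.10 CPM in cardiomyocytes of Tg+ mice, from 8, 6 and 8 counts. In those of WT mice it had 0.594 and 1.89 CPM, from 4 and 16 counts in mice 1 and 2, and no count in mouse 3, where 3 counts would be 0.320 CPM. Fibroblasts had 2.06, 4.54 and 3.22 CPM in Tg+ mice and 0.808, 3.03 and 1.33 CPM in WT mice, from 29 to 144 counts. Within each mouse the fibroblast value was the higher, although the ranges over mice overlapped. Hcn4 was lower in cardiomyocytes by a fold change of −2.06 (SE 0.60, edgeR adjusted p = 0.0163), 4.16-fold, and the adjusted p was 0.0663 without Tg+ mouse 2. In counts of Hcn2 and Hcn4 together, Hcn4 made up 0 to 53.3% in cardiomyocytes (median 17.8%) and 34.9 to 74.2% in fibroblasts (median 66.7%).

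Markers of conduction cells gave no common direction beside Hcn4. Of 10 listed, 5 were tested, the node gene Shox2 was higher in cardiomyocytes (1.73, SE 0.54, edgeR adjusted p = 0.0232) and the calcium channel gene Cacna1d lower (−3.50, SE 0.65, adjusted p = 0.00147). Summed over the list, CPM ran from 111 to 187 in cardiomyocytes and from 66.0 to 278 in fibroblasts. The largest part of this sum was Smoc2, with 59.1 to 158 CPM in cardiomyocytes and 50.0 to 243 CPM in fibroblasts. Tbx3 came next, with 23.05 to 38.7 CPM and 8.83 to 29.9 CPM. The defining genes Cntn2 and Isl1 were at or near 0 in both cell types. Cntn2 had at most 0.549 CPM in cardiomyocytes and 0.307 CPM in fibroblasts, and Isl1 at most 0.275 and 0.0824 CPM.

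The connexins differed in opposite directions. Gja1 (chr10:56377330-56402513, plus strand) had 45.0, 62.2 and 84.6 CPM in cardiomyocytes of Tg+ mice and 66.2, 45.2 and 40.3 CPM in those of WT mice. Fibroblasts held 118.7, 180.4 and 155.4 CPM in Tg+ mice and 51.3, 176.2 and 144.7 CPM in WT mice. Only the fibroblasts of WT mouse 1 lay inside the cardiomyocyte range, and that mouse alone had the higher value in cardiomyocytes. Gja1 was lower in cardiomyocytes by −1.23 (SE 0.30, edgeR adjusted p = 0.00647), 2.34-fold, and this passed with any mouse left out, from −1.53 to −1.08.

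Gja5 (chr3:96904693-97077416, plus strand) had 6.51, 5.91 and 3.02 CPM in cardiomyocytes of Tg+ mice and 6.38, 12.2 and 8.43 CPM in those of WT mice. Fibroblasts had 1.62, 1.42 and 3.25 CPM in Tg+ mice and 3.09, 2.10 and 2.63 CPM in WT mice. The ranges touched only through Tg+ mouse 3, the only mouse with a lower value in cardiomyocytes. Gja5 was higher by 1.57 (SE 0.35, edgeR adjusted p = 0.00428), 2.97-fold. Of the counts of both connexin genes, Gja5 gave 3.45 to 21.2% in cardiomyocytes (median 10.7%) and 0.780 to 5.68% in fibroblasts (median 1.57%).

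Exons of Gja5 overlap those of Gpr89 on the opposite strand, and the sources used here do not state whether counting used the strand. Gpr89 had 0.549 to 6.91 CPM in cardiomyocytes and 2.55 to 4.51 CPM in fibroblasts, with a fold change of 0.13 (edgeR adjusted p = 0.824). Atrial and arterial markers are the background for Gja5. Of 10 atrial cardiomyocyte markers, 6 were higher in cardiomyocytes and 0 lower, with summed CPM of 123 to 202 in cardiomyocytes and 21.0 to 123 in fibroblasts. In cardiomyocytes the atrial sum was uneven over genes and mice, and by itself it does not measure atrial cells. By median over mice its largest parts were Nr2f2, Dkk3 and Nr2f1. Nr2f2 held 35.3 to 52.5 CPM, Nr2f1 9.00 to 59.9 CPM and Dkk3 22.1 to 91.8 CPM. Myl7 ran from 0.275 CPM in Tg+ mouse 3 to 23.15 CPM in WT mouse 1. Myl4, Sln and Bmp10 had 0 CPM in cardiomyocytes of Tg+ mouse 3, and Nppa had its lowest value there, 2.06 CPM. The same column held the highest Nr2f1 value, 59.9 CPM. Of 10 arterial endothelial markers, 2 were higher and 2 lower, with summed CPM of 199.6 to 331 in cardiomyocytes and 172 to 452 in fibroblasts. The part of these cells in the Gja5 difference was not tested.

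**Figure D2:**
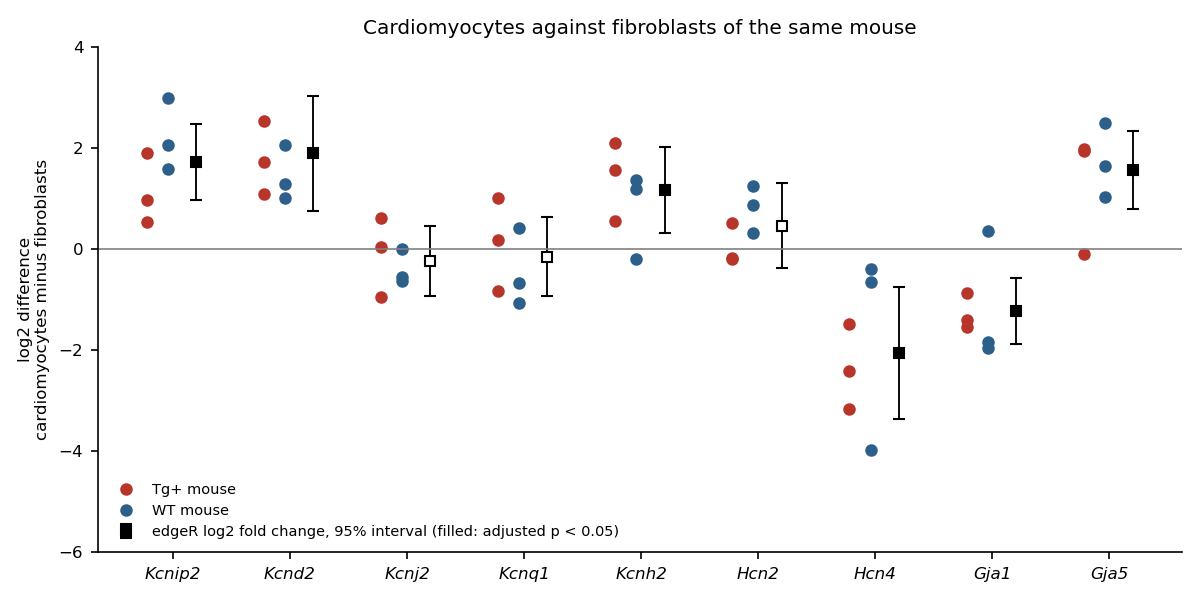
Difference of log2 CPM (prior count 2), cardiomyocytes minus fibroblasts of the same mouse (vertical axis), for Tg+ (red) and WT (blue) mice, beside the edgeR log2 fold change with its 95% interval (squares, filled where adjusted p is under 0.05). Filled squares run from −2.06 for Hcn4 to 1.90 for Kcnd2, and Kcnj2, Kcnq1 and Hcn2 have open squares whose intervals cross 0.

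Scaling bears on the size of all these differences. With library size alone in place of TMM, the median of all genes moved to −0.95, and 458 genes passed as higher and 6623 as lower in cardiomyocytes, against 2734 and 3456 with TMM. On that scale Gja1 (−2.14), Hcn4 (−2.99) and Kcnj2 (−1.13) passed as lower, and Kcnip2 (0.84), Kcnd2 (1.00), Kcnh2 (0.25) and Gja5 (0.67) kept their direction without passing. Hcn2 was at −0.44 and Kcnq1 at −1.06. Relative to that median, no member changed direction. Kcnip2 was at 1.78, Kcnd2 at 1.94, Kcnh2 at 1.197, Gja5 at 1.61, Hcn2 at 0.51, Kcnq1 at −0.11, Kcnj2 at −0.19, Gja1 at −1.19 and Hcn4 at −2.04 on that scale.

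The members that were higher in cardiomyocytes were also compared with the muscle content of each preparation, a ratio chosen after their values were seen. Per 1000 CPM summed over the 13 cardiomyocyte markers, Kcnip2 stood at 3.00, 2.68 and 1.71 CPM in cardiomyocytes of Tg+ mice and 4.30, 3.23 and 2.25 CPM in those of WT mice. The same ratio in fibroblasts was 2.89, 3.32 and 3.49 CPM in Tg+ mice and 2.34, 2.33 and 2.96 CPM in WT mice. The medians of this ratio were 2.84 CPM in cardiomyocytes and 2.92 CPM in fibroblasts, and those of plain CPM were 6.08 and 1.82. The part of muscle content in the Kcnip2 difference was not tested. Kcnd2 had medians of 0.477 and 0.432 CPM per 1000 CPM of markers, Gja5 2.88 and 3.45, and Kcnh2 1.13 and 2.01, each given for cardiomyocytes and then fibroblasts. For Kcnj2 (1.05 and 4.92), Kcnq1 (1.2 and 5.13), Gja1 (24.8 and 212) and Hcn4 (0.238 and 3.67) the cardiomyocyte and fibroblast ranges of this ratio did not overlap. The marker sums themselves ran from 1196 to 3190 CPM in cardiomyocytes and from 493 to 1204 CPM in fibroblasts. The share of all genes without overlap on this ratio is not given here.

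Gja1 and Hcn4 were set in the same way against the 13 fibroblast markers. Gja1 had 5.97, 10.8 and 15.0 CPM per 1000 CPM of these markers in cardiomyocytes of Tg+ mice and 5.54, 8.98 and 4.37 CPM in those of WT mice. Fibroblasts had 23.0, 22.6 and 24.9 CPM in Tg+ mice and 17.7, 22.2 and 26.3 CPM in WT mice. The fibroblasts of WT mouse 1, which had the lowest plain CPM of Gja1, also had the lowest marker sum, 2898 CPM. With this ratio no fibroblast value lay inside the cardiomyocyte range, and the share of all genes without such overlap is not given here. Col1a1, a marker in this sum, passed as higher in cardiomyocytes and reached 4406 CPM in WT mouse 1 and 3760 CPM in WT mouse 3. Cardiomyocytes of these mice had the lowest Gja1 ratios, and the part of Col1a1 in this was not tested. Hcn4 had 0 to 0.376 CPM per 1000 CPM of markers in cardiomyocytes and 0.242 to 0.568 CPM in fibroblasts, and these ranges overlapped.

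**Figure D3:**
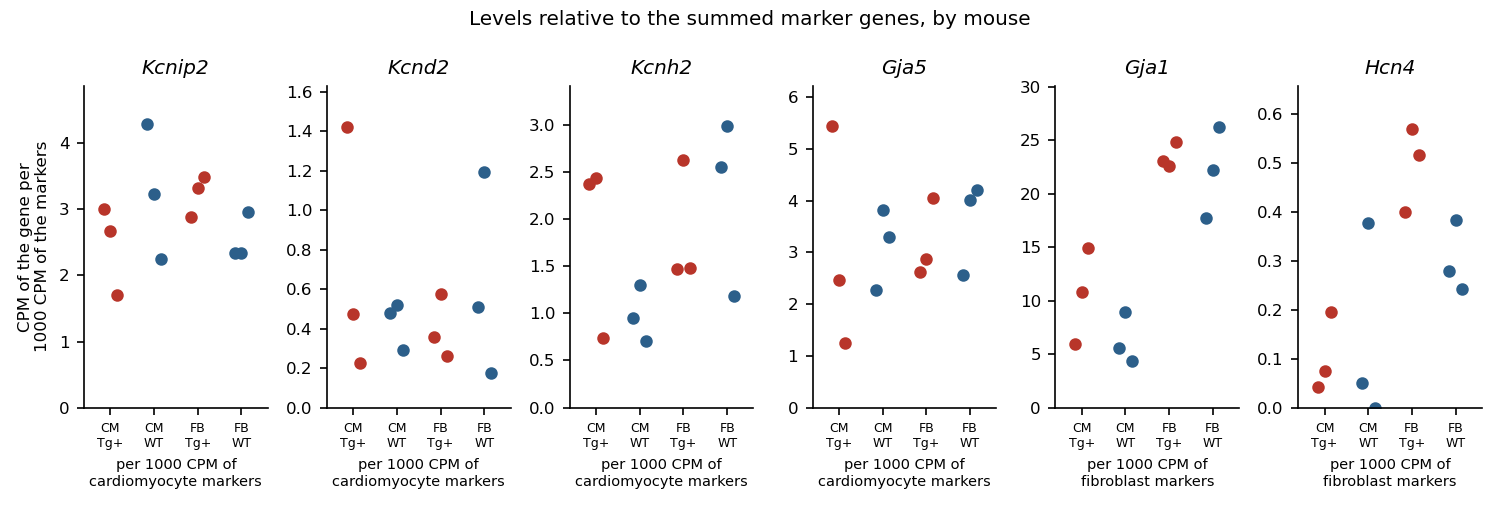
CPM of a gene per 1000 CPM summed over cardiomyocyte markers (Kcnip2, Kcnd2, Kcnh2, Gja5) or fibroblast markers (Gja1, Hcn4), on linear axes from 0. Points are mice of the Tg+ (red) and WT (blue) groups in cardiomyocytes (CM) and fibroblasts (FB). Kcnip2 lies between 1.71 and 4.30 in CM and between 2.33 and 3.49 in FB, while Gja1 lies between 4.37 and 15.0 in CM and between 17.7 and 26.3 in FB.

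The second comparison, the question of the study, set Tg+ against WT mice in cardiomyocytes. No member passed the test, and none had groups that did not overlap. Kcnip2 averaged 4.71 ± 1.49 CPM in Tg+ and 9.36 ± 3.23 CPM in WT cardiomyocytes, Gja5 5.15 ± 1.87 and 9.00 ± 2.95 CPM, and Hcn2 1.47 ± 0.451 and 2.38 ± 1.27 CPM (SD, n = 3 mice each). Gja1 averaged 63.9 ± 19.9 CPM in Tg+ and 50.6 ± 13.7 CPM in WT cardiomyocytes. Of 12439 genes tested by edgeR 0% passed, and 5.02% had groups without overlap. Hcn4 did not pass the filter on low counts, so 8 members were tested.

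The lowest unadjusted p among the members was that of Kcnip2. Its log2 fold change, Tg+ over WT, was −0.99 with a 95% interval from −1.999 to 0.01 (edgeR unadjusted p = 0.0525, adjusted p = 1.00). The overlap came from Tg+ mouse 2, at 6.40 CPM, and WT mouse 3, at 5.76 CPM. The summed cardiomyocyte markers were also lower in Tg+ mice, at 1196 to 2415 CPM in Tg+ and 2559 to 3190 CPM in WT cardiomyocytes. Their median log2 fold change was −0.63, although 0 of the 13 passed, and their order over single mice differed from that of Kcnip2. Single markers did not all follow the sum. Ryr2 lay at 10.2 to 18.7 CPM in Tg+ and 26.0 to 36.65 CPM in WT cardiomyocytes, while Actc1 was highest in Tg+ mouse 3, at 752 CPM. The part of the cardiomyocyte markers in the Kcnip2 difference was not tested. Per 1000 CPM of these markers the Kcnip2 values of Tg+ (1.71 to 3.00) and WT mice (2.25 to 4.30) also overlapped. Gja5 had a fold change of −0.79 (interval −1.81 to 0.23) and Hcn2 of −0.67 (−2.25 to 0.92).

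The other 5 tested members had fold changes nearer to 0 in cardiomyocytes, with wide intervals. These were 0.33 for Gja1 (interval −0.48 to 1.14), 0.29 for Kcnh2 (−1.15 to 1.72), 0.21 for Kcnq1 (−1.26 to 1.67), 0.18 for Kcnj2 (−1.15 to 1.52) and −0.10 for Kcnd2 (−1.87 to 1.66). The high values of Kcnj2, Kcnq1 and Kcnh2 in the Tg+ group all came from mouse 2, and without it their fold changes were −0.33, −0.36 and −0.29. The members' median was 0.04, and that of all genes 0.01. At an unadjusted p under 0.05 there were 0 members and 89 genes. Changes as large as 2-fold in either direction were thus inside the interval of Kcnd2, Kcnj2, Kcnq1 and Kcnh2 at this depth and number of mice.

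In fibroblasts, Tg+ and WT mice likewise overlapped for each of the 8 members tested, and none passed. Hcn4 averaged 3.27 ± 1.24 CPM in Tg+ and 1.73 ± 1.16 CPM in WT fibroblasts, Gja1 151.5 ± 31.0 and 124.1 ± 64.9 CPM, and Kcnq1 2.70 ± 0.360 and 3.66 ± 0.776 CPM (SD, n = 3 mice each). Of 13571 genes tested by edgeR 0% passed, and 13% had groups without overlap. Kcnd2 did not pass the filter. The fold changes, Tg+ over WT, were 0.92 for Hcn4 (95% interval −0.28 to 2.13, edgeR adjusted p = 0.768) and −0.42 for Kcnq1 (−0.96 to 0.12). Kcnh2 was at −0.65 (−1.79 to 0.50), with 3.07 CPM in WT mouse 1 and 0.741 to 1.56 CPM in all other mice.

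The remaining fibroblast values were 0.29 for Gja1 (interval −0.72 to 1.31), −0.30 for Gja5 (−1.15 to 0.55), 0.23 for Hcn2 (−0.56 to 1.02), 0.10 for Kcnip2 (−0.77 to 0.97) and −0.16 for Kcnj2 (−0.76 to 0.45). Without WT mouse 1, the fold change of Gja1 was −0.08. With the letter F or M of the animal codes as a covariate it was 0.82 (SE 0.36, edgeR adjusted p = 0.704), and that of Hcn4 was 1.37 (SE 0.42, adjusted p = 0.704). For Hcn4, the 3 Tg+ mice lay at 2.06 to 4.54 CPM, and WT mouse 2, at 3.03 CPM, lay among them. Macrophage and myeloid markers summed to 2380 to 5525 CPM in Tg+ and 6063 to 7670 CPM in WT fibroblasts, with none of the 13 passing, and their part in these values was not tested. At an unadjusted p under 0.05 there were 0 members and 690 genes.

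**Figure D4:**
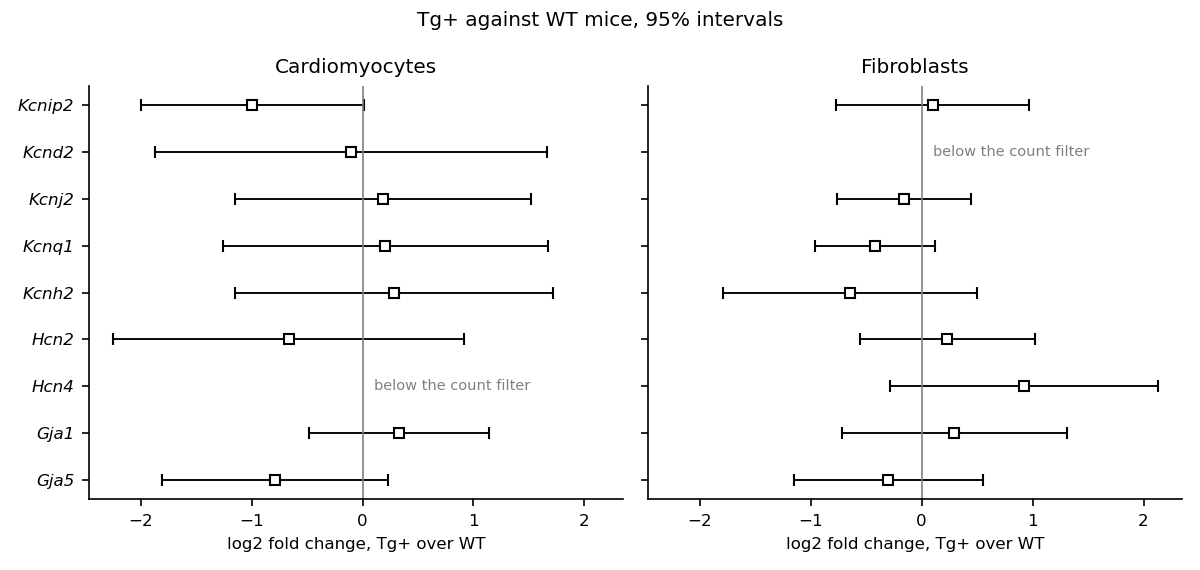
log2 fold change of Tg+ over WT mice (horizontal axis) with 95% intervals derived from the edgeR F statistic, in cardiomyocytes (left) and fibroblasts (right). Every interval of the 8 genes tested in each panel crosses 0, and that of Kcnip2 in cardiomyocytes ends at 0.01. Hcn4 in cardiomyocytes and Kcnd2 in fibroblasts were below the count filter.

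Whether the genotype difference itself differed between the cell types was tested as an interaction. No member passed, and of 13891 genes 0% passed by edgeR, with 0 members and 124 genes at an unadjusted p under 0.05. Kcnip2 had an interaction of −1.08 on the log2 scale (SE 0.63, 95% interval −2.49 to 0.32, edgeR unadjusted p = 0.117, adjusted p = 1.00), the lowest p of the members. Its within-mouse differences were 0.97, 1.91 and 0.54 in Tg+ mice and 2.06, 2.99 and 1.59 in WT mice, and Tg+ mouse 2 lay above WT mouse 3. The other interactions ran from −1.09 for Hcn4 to 0.67 for Kcnh2.

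The second deposited table gave a different picture for a pair of members, Kcnq1 and Gja5. It holds a normalized signal, and the factor between estimated count and signal differs between genes and libraries. For Kcnq1 this factor, relative to the median of its library, ran from 0.0507 to 2.80, a 55.2-fold range that is as wide as or wider than that of 99.9% of 12494 genes. The lowest factor came from rep1 of WT mouse 2, with 13 counts, and without that library the range was 24.0-fold. In cardiomyocytes of Tg+ mouse 2, counts of 24 and 51 in rep1 and rep2 stood beside signals of 411 and 305, and in those of WT mouse 2 counts of 13 and 21 stood beside signals of 770 and 199.8. The other 8 cardiomyocyte libraries had signals of 4.45 to 43.3, and fibroblasts 8.00 to 22.2 from 69 to 162 counts. In signal, the cardiomyocyte libraries of these mice lay above all other libraries. Their summed counts gave 5.34 and 4.03 CPM, against 1.60 to 2.82 CPM in the other cardiomyocytes. With the signal, the Kcnq1 fold change by cell type was 1.62 (limma adjusted p = 0.126), against −0.15 with counts.

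For Gja5 the tables differed less, and no direction turned. Its factor ran from 0.237 to 1.82, a 7.70-fold range, and in rep1 of WT mouse 3 a count of 12 stood beside a signal of 392. With the signal, Gja5 was higher in cardiomyocytes by 2.49 (SE 0.48, limma adjusted p = 0.00228), against 1.57 with counts. Its Tg+ over WT fold change in cardiomyocytes was −1.82 with the signal (SE 0.71, limma adjusted p = 1.00) and −0.79 with counts. Kcnip2 had a 1.87-fold range and Kcnh2 1.46-fold, and the factors of Kcnd2, Kcnj2, Hcn2, Hcn4 and Gja1 ranged by 1.22-fold or less. Kcnq1 has 7 protein-coding transcripts in GENCODE M21, from 182 to 3029 bases, and Gja5 has 3, from 405 to 3668 bases, whereas Kcnd2, Kcnj2 and Hcn4 have 1 each. Over all genes the median range of the factor was 1.74-fold for 8766 genes with several protein-coding transcripts and 1.08-fold for 3183 genes with 1. Gja1, with 6 such transcripts from 180 to 3182 bases, had a range of 1.11-fold. Exons of Kcnq1 also overlap the antisense transcript Kcnq1ot1, which the count table does not list. Which transcripts the counts came from was not tested, and levels of Kcnq1 and Gja5 per kilobase carry this uncertainty.

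**Figure D5:**
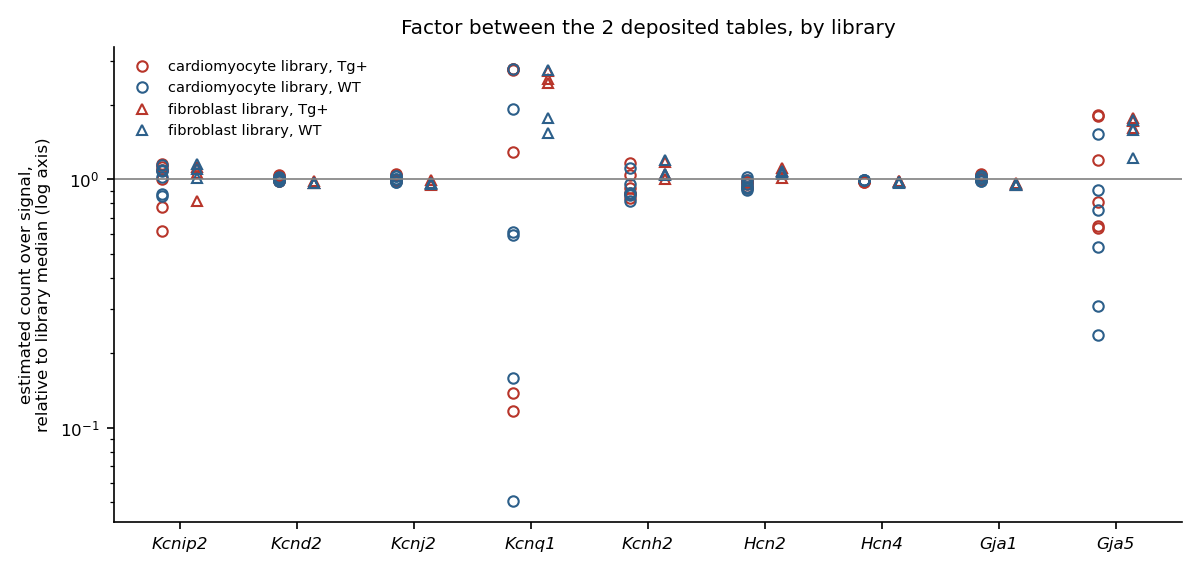
Estimated count divided by normalized signal, relative to the median of each library (vertical axis, logarithmic), for the 9 genes in cardiomyocyte (circles) and fibroblast (triangles) libraries of Tg+ (red) and WT (blue) mice, with libraries at 0 left out. Kcnq1 spreads from 0.0507 to 2.80 and Gja5 from 0.237 to 1.82, while Kcnd2, Kcnj2, Hcn4 and Gja1 stay near 1.

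The rep1 and rep2 columns of a mouse, which may be separate libraries or sequencing rounds, show how few molecules stand behind the rarer channels. In rep1, 4 of 6 cardiomyocyte libraries held 3 or fewer counts of Kcnq1, 5 of Hcn4, 3 of Hcn2 and 2 each of Kcnip2, Kcnd2, Kcnj2 and Kcnh2. Gja1 had 47 to 277 counts in rep1 and 250 to 982 in rep2, and its CPM in rep2 was 0.857 to 1.08 times that in rep1. Gja5 had 4 to 37 counts in rep1 and 18 to 148 in rep2, with ratios from 0.679 to 1.43. For Kcnd2 the ratios ran from 0.202 to 1.60 and for Hcn2 from 0.454 to 2.70.

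Other genes of the same systems were counted from lists, and each count stands beside the 19.7% of all genes that passed as higher and the 24.9% that passed as lower in cardiomyocytes, with an all-gene median of −0.04. Of 17 tested voltage-gated potassium channel genes and partners, 2 were higher and 2 lower in cardiomyocytes (median −0.24), with Kcna5, the pore of a slowly inactivating current of mouse ventricle, at 0.83 (SE 0.22) and the beta subunit Kcne4 at −1.43 (SE 0.36). Of 15 inward rectifier and K2P (leak) potassium channel genes, 6 were higher and 2 lower (median 0.76). Among them, the ATP-sensitive pore Kcnj11 was higher by 1.95 (SE 0.33), its vascular relative Kcnj8 by 1.45 (SE 0.23) and the leak channel Kcnk3 by 1.77 (SE 0.29), while Kcnk13 was lower by −4.30 (SE 0.33). Kcnj8 is also a pericyte marker, and of that list 9 of 11 genes were higher. Calcium-activated potassium channels had 1 higher (Kcnma1, 4.94, SE 1.06) and 1 lower (Kcnn4, −1.60, SE 0.41) of 5, and Trpm4, the only tested gene of 4 other pacemaker channels, did not pass (−0.15).

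Depolarizing channels and the partners of gap junctions followed. Of 10 tested sodium channel genes and partners, 3 were higher and 1 lower, with the beta subunit Scn4b at 2.41 (SE 0.43), Scn8a at 3.77 (SE 0.60) and the skeletal muscle channel Scn4a at −2.19 (SE 0.48). Of 11 surface calcium channel genes, 4 were higher, among them the L-type pore Cacna1c at 1.34 (SE 0.38), and Cacna1d was lower. Of 7 other connexins and pannexins, 3 were higher, with connexin 45, Gjc1, at 1.08 (SE 0.23), and pannexin 1, Panx1, was lower at −3.10 (SE 0.61). Of 14 partners of the intercalated disc, 8 were higher and 1 was lower (median 1.23). N-cadherin, Cdh2, was higher by 2.60 (SE 0.28), desmoplakin, Dsp, by 2.36 (SE 0.30) and caveolin 3, Cav3, by 1.95 (SE 0.38).

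Of 16 regulators of conduction and channel genes, 10 were higher and 1 was lower (median 1.04). The homeobox genes Irx1 (3.15, SE 0.41) and Irx2 (3.29, SE 0.44) were higher, and Irx3 (−2.19, SE 0.33), needed for fast conduction in the mouse His-Purkinje system, was the lower one. None of the genes in these lists passed by genotype or interaction. In cardiomyocytes the lowest unadjusted p-values among them were those of Nkx2-5, a cardiac homeobox factor, with a Tg+ over WT fold change of −1.83 (SE 0.44, edgeR adjusted p = 1.00), and Dsp, at −1.27 (SE 0.33, adjusted p = 1.00). Kcnk3 was at −1.24 (SE 0.39), with 9.51 ± 1.63 CPM in Tg+ and 22.3 ± 8.56 CPM in WT cardiomyocytes (SD, n = 3 mice each). Summed cardiomyocyte markers were lower in the same Tg+ columns (1196 to 2415 CPM against 2559 to 3190 CPM in WT). Their part in the values of Nkx2-5, Dsp and Kcnk3 was not tested.

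Among the genes whose log2 CPM was most like that of Kcnip2 over the 12 mouse and cell type columns were Popdc2 (Pearson r = 0.985) and Fsd2 (0.975), out of 8868 genes with a mean of at least 5 CPM. Popdc2 encodes a cAMP-binding membrane protein of heart muscle. After subtracting the mean of each cell type, Popdc2 (0.951) and Pygm (0.951) were nearest. For Gja1 the nearest were Ugdh (0.953), Rdh10 (0.951) and Irx3 (0.942), and after subtraction Nav3 (0.935), Schip1 (0.927) and the fibroblast marker Pdgfra (0.923). Gja5 lay nearest to Hibadh (0.985). Among the members, the highest correlations were those of Kcnd2 with Kcnh2 (0.875), of Kcnip2 with Gja5 (0.874) and of Hcn4 with Gja1 (0.785), and Gja1 with Gja5 was at −0.837. After subtracting the mean of each cell type, these pairs were at 0.760, 0.588, 0.577 and −0.571. These columns share mice, cell preparations and depth, so the correlations are descriptions.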

How the data were processed

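Per the labels, total RNA of isolated cells was enriched for messenger RNA on oligo(dT) beads, and cardiomyocyte samples were sequenced a second time. The deposited tables cover 19094 genes in 18 libraries. The first holds expected counts (estimated counts) per gene, 44.6% of them not whole, and the second a normalized signal made by the authors, each value an estimated count divided by a factor specific to gene and library, as read from the values. Per the submitters' processing notes, build GRCm38.p6 and the tools R 3.4.4, DESeq2 1.18.1 and kallisto 0.44.0 were used, listed without roles. The sources used here do not state the annotation or the strand of counting. All columns were mapped to a sample (0 were not).

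Both cardiomyocyte libraries of a mouse were added, the expected counts rounded, and the mouse taken as replicate. Fits on all genes used edgeR 4.0.16 in R 4.3.3 (filterByExpr, TMM, robust glmQLFit, glmQLFTest) and adjusted p under 0.05. Cell type was tested with mouse as block, since same-numbered columns come from the same mouse, and genotype in each cell type alone. The script was tested on simulated data. Alternatives used DESeq2 1.42.0, limma 3.58.1 (log2 of the signal plus a pseudocount of 1), other scalings and filters, the signal table, rep2 alone, the letter F or M of the animal codes as a covariate, and each mouse left out.

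All 9 members are named. From each other list, up to 4 genes that passed with the lowest p, or 2 that did not pass, may be named, and 3 genes most like each member by Pearson r. Not all of these are printed. The members and lists were chosen with earlier results of these data known, and the ratios to marker sums after the values were seen. Gene positions are from GENCODE M21 on GRCm38.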

Additional observations from a re-analysis of the deposited data

Results flagged for a closer look

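Kcnh2 in fibroblasts had 1 value far from the others. The fibroblasts of WT mouse 1 held 3.07 CPM, against 0.741 to 1.56 CPM in those of the other 5 mice. It was marked by the gap to its neighbour as a share of the range, at the 95% critical value for 6 values. Chance marks about 1 in 20 such groups, and of 27 groups of 6 mice examined (each member's CPM in each cell type and its within-mouse difference) 1 was marked. The same library had the highest share of mitochondrially encoded counts among fibroblast libraries, 74.2%, against 16.7 to 39.2% in the others. It also had the highest sum of cardiomyocyte markers among them, 1204 CPM. The part of either in the Kcnh2 value was not tested. Without WT mouse 1, Kcnh2 was higher in cardiomyocytes by 1.44 on the log2 scale (edgeR adjusted p = 0.0152), against 1.17 with all mice.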

How the results depend on the processing

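By cell type, 6 members passed in the main design and with DESeq2's size factors, the DESeq2 test, limma voom, no low-count filter and mitochondrial genes left out. With library size alone 3 passed, with the signal or rep2 alone 5, and with a mouse left out 4 to 6, while 5038 to 6821 genes passed. Without the replicate block of the paired mice 6 members and 6557 genes passed. Over the 12 cardiomyocyte libraries, limma voom took the repeat number as a covariate and treated libraries of a mouse as correlated. By genotype in cardiomyocytes 0 members passed there, as in the main design. Of 135 alternative values by cell type, 119 kept direction and call, and 12 kept direction but no longer passed. By genotype and interaction 0 members passed in any alternative. Among all genes, library size alone called 2 by genotype in cardiomyocytes (Dhx35, Wif1), 2 in fibroblasts (Bsx, Nanp) and 1 by interaction (Dhx35). The DESeq2 test called 3 (those and Stard9), 6 (Cd300d, Cd5l, Marco, Nanp, Nlrp1b, Saa3) and 1 (Dhx35). These genes were named after their values were seen.

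Direction turned only in values that had not passed. Library size alone put the median of all genes at −0.95 by cell type, 0.84 by genotype in cardiomyocytes, 0.36 in fibroblasts and 0.30 for the interaction. Relative to these medians, of the values given for it below only Kcnd2 in cardiomyocytes still turned, at 0.15. The cause of the other turns was not tested. By cell type the turns were Hcn2 with library size alone (−0.44), Kcnq1 with the signal (1.62) and Kcnq1 with a mouse left out (−0.41 to 0.023). In cardiomyocytes, library size alone gave 1.00 for Kcnd2, 0.41 for Hcn2 and 0.15 for Gja5, limma voom gave 0.11 for Kcnd2, and the signal gave −0.23 for Kcnj2 and −1.12 for Kcnq1. Leaving out a mouse gave −0.33 to 0.40 for Kcnj2, −0.36 to 0.57 for Kcnq1, −0.29 to 0.66 for Kcnh2 and −0.50 to 0.20 for Kcnd2. In fibroblasts, library size alone gave 0.20 for Kcnj2, 0.011 for Kcnq1 and 0.095 for Gja5, and the letter as covariate gave −0.083 for Kcnip2. Leaving out a mouse gave −0.37 to 0.041 for Kcnj2, −0.021 to 0.41 for Hcn2, −0.17 to 0.44 for Kcnip2 and −0.078 to 0.64 for Gja1. For the interaction, library size alone gave 0.25 for Gja1, the signal gave −0.00073 for Kcnj2 and −0.34 for Kcnq1, and leaving out a mouse gave −0.053 to 0.73 for Kcnj2, −0.53 to 0.63 for Gja1 and −0.77 to 0.27 for Gja5.

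Depth limits Kcnd2 and Hcn4 in cardiomyocytes, which rest on 4 to 43 and 0 to 16 counts.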
